A study of Mus musculus with 3 samples.

Results

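The 10 genes described here, Pax6, Nkx2-2, Foxa2, Cdx2, Sox1, Neurog1, Gata4, Olig2, T and Gata6, encode transcription factors that set up tissues of the embryo and are known as silent in mouse embryonic stem (ES) cells. They were chosen by name as regulators with CpG-rich promoters, and each was followed over its gene span on build mm9 with 10 kb added on both sides. These 10 loci cover 353 kb, or 706 bins of 500 bp out of 5115001 bins of chromosomes 1 to 19 and X. Gene expression and histone marks were not measured in this series, so neither the silence of the genes nor a bivalent state was checked here. The data are 3 chromatin immunoprecipitation sequencing (ChIP-seq) libraries, with 1 library per antibody, made from C57BL/6 mouse ES cells kept on gelatin without feeders in serum medium with ESGRO. The first antibody was raised in house against TET2, the second was a commercial antibody against OGT, and the third was against H2B S112GlcNAc. The labels give no name for the cell line. No input or IgG library was used here, and no antibody had a replicate, so every comparison below describes these 3 libraries and carries no test between antibodies.

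TET2 oxidises 5-methylcytosine in DNA, a step towards removing DNA methylation. OGT is the enzyme that attaches the sugar N-acetylglucosamine to serines and threonines of nuclear and cytoplasmic proteins, and TET2 is known to bind OGT. H2B S112GlcNAc is histone H2B with this sugar on a serine near its C-terminus. In ES cells, promoters of developmental regulators typically lie in CpG islands that are free of DNA methylation and carry both Polycomb-type and activating histone marks, the state called bivalent. In RefSeq, other genes lie in or beside some of these loci, such as Elp4 by Pax6, Neil2 by Gata4 and the noncoding Sox1ot by Sox1, and reads over shared DNA belong to both. During differentiation such regulators are switched on in one lineage and kept off in the others.

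RefSeq promoters, 300 bases that run from 250 before to 50 after an annotated start, were held for 8 of the 10 genes, as 11 promoters. They held 12 to 37 CpG dinucleotides with a median of 18.0, against a median of 7.0 over all 32851 promoters of the table. A GC content of at least 50% with an observed-over-expected CpG ratio of at least 0.6 was met by 9 of the 11 promoters (81.8%), against 33.5% of all promoters. CpG content entered the choice of the genes, so these values describe the members and support nothing. Of 33 other developmental regulators of the same kind, 23 had promoters that were used. Of their 26 promoters, 18 (69.2%) met the same limits, with a median of 24.0 CpG. The motif GGGCGG, searched on both strands, was in 8 of the 11 promoters and in 35.7% of all promoters. CCAAT on both strands was in 7 of 11 against 37.4%, TATAAA on both strands in 2 of 11 against 13.6%, and CACGTG in 1 of 11 against 7.15%. Among the 26 promoters of the other developmental regulators the shares were 65.4% with GGGCGG, 46.2% with CCAAT, 7.69% with TATAAA and 7.69% with CACGTG. A match is a description of these letters and no sign of binding.

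The promoters below belong to the 3 genes whose starts had the densest TET2 reads, Neurog1, Cdx2 and Sox1, and to Olig2, which tied for the lowest. Capitals mark each CpG, the dinucleotide that DNA methylation and TET enzymes act on, and the sequences are RefSeq's on its own build, so no read was counted against their coordinates.
Neurog1 (GRCm38.p6, chr13:56252131-56252430, minus strand): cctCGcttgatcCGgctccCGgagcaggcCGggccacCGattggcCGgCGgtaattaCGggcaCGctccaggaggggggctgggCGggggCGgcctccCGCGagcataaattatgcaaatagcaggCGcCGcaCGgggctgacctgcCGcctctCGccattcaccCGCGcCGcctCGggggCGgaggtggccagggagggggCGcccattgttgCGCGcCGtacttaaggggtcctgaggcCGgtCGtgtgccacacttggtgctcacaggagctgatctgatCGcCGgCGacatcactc
Cdx2 (GRCm38.p6, chr5:147307200-147307499, minus strand): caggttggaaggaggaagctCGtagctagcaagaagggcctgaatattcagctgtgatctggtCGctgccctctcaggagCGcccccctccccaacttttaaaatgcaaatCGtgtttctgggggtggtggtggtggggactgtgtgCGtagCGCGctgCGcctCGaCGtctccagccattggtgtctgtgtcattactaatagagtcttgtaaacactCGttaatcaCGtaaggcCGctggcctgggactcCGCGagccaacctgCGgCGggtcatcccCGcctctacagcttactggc
Sox1 (GRCm38.p6, chr8:12395269-12395568, plus strand): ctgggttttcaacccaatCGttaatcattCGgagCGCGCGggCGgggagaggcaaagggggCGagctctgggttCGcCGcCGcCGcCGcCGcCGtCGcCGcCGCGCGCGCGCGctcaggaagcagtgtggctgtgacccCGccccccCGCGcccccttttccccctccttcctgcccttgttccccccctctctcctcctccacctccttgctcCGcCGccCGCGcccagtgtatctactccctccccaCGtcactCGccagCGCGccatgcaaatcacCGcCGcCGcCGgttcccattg
Olig2 (GRCm38.p6, chr16:91225300-91225599, plus strand): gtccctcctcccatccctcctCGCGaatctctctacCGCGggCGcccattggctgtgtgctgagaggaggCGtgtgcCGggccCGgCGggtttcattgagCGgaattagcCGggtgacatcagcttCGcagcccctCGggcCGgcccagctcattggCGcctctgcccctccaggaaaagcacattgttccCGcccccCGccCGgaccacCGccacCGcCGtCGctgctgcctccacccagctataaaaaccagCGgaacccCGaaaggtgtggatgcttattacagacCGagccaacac

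The promoter of Sox1 held 37 CpG, a number reached by 5.58% of all promoters, and that of Neurog1 held 32, reached by 9.52%. The Olig2 promoter held 25 CpG and the Cdx2 promoter 18. The remaining genes lay between 12 CpG, at the first of the 3 Foxa2 promoters, and 23, at the second. Pax6 had 18 and 16 CpG at its promoters, and Nkx2-2 and T had 17 each. CpG number was therefore not in the same order as TET2 density at the start, since Olig2 had more CpG than Cdx2 but fewer TET2 reads. Over the 8 genes, with the first promoter of each, Spearman's rho between CpG number and density at the start was 0.265 in TET2, 0.773 in OGT and 0.0424 in H2B S112GlcNAc. With the density of the whole locus it was 0.590, 0.776 and 0.205. These are descriptions over 8 points that share libraries and depth. They also rest on the promoter taken. Foxa2, the lowest locus in OGT, entered with 12 CpG, the fewest of all 11 promoters, although its second promoter held 23. Values with other promoters were not computed.

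Reads were counted as distinct positions, that is, reads with the same start and strand once. Used positions numbered 3295957 in TET2, 1877581 in OGT and 4021971 in H2B S112GlcNAc, and a bin of 500 bp held on average 0.644, 0.367 and 0.786 of them. Densities are given as fold over this library mean, with exact Poisson 95% intervals in parentheses that cover counting error only. Repeated reads were few in the loci, at 1.0 to 1.13 reads per position, and none of the 1014 extreme 1 kb bins of the genome (the top 0.1% in each of the 3 libraries) lay in them.

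All 3 libraries were denser over these loci than over the genome, TET2 most of all. The 10 loci together held 1023 TET2, 464 OGT and 965 H2B S112GlcNAc positions. That is 2.25-fold the library mean in TET2 (2.11–2.39), 1.79-fold in OGT (1.63–1.96) and 1.74-fold in H2B S112GlcNAc (1.63–1.85). The lower bound lay above the library mean at 10 of 10 loci in TET2, 9 in OGT (Foxa2 missed it) and 10 in H2B S112GlcNAc, although the bound at T rounded to 1.0. The same held for 21.8%, 16.7% and 22.7% of all 85134 tiles of 30 kb in the genome, while the loci span 23 to 67 kb. With every read kept the bound was below the mean in OGT at Pax6 (1.32-fold, 0.993–1.72) and in H2B S112GlcNAc at Gata6 (1.16-fold, 0.959–1.4) and T (1.23-fold, 0.952–1.57). With reads drawn down to the depth of OGT it was below in H2B S112GlcNAc at T (1.08-fold, 0.685–1.62), Foxa2 (1.36-fold, 0.881–2.01) and Sox1 (1.47-fold, 0.969–2.14), and with no shift at T (1.29-fold, 0.985–1.67). In the 50 kb on each side beyond the loci the fold was 1.32 (1.25–1.38) in TET2, 1.20 (1.12–1.28) in OGT and 1.28 (1.23–1.34) in H2B S112GlcNAc. Pooled, the loci were thus denser than their surroundings by 1.71-fold (1.58–1.85) in TET2, 1.49-fold (1.33–1.67) in OGT and 1.36-fold (1.25–1.46) in H2B S112GlcNAc. Not every single locus was. In H2B S112GlcNAc T stood at 1.32-fold beside 1.56-fold (1.37–1.77) around it, and Sox1 at 1.81-fold beside 1.72-fold (1.52–1.93). The surroundings themselves varied, in TET2 from 0.838-fold at Foxa2 to 1.78-fold at Sox1 and 1.85-fold at Neurog1.

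The density was concentrated at the gene starts. Windows of 2 kb on each side of the 10 starts held 245 TET2, 92 OGT and 184 H2B S112GlcNAc positions, or 4.75-fold (4.18–5.39), 3.13-fold (2.53–3.84) and 2.93-fold (2.52–3.38). The rest of the loci stood at 1.93-fold (1.80–2.07) in TET2, 1.62-fold (1.46–1.79) in OGT and 1.59-fold (1.48–1.70) in H2B S112GlcNAc. Start windows exceeded the rest of the loci by 2.46-fold (2.13–2.85) in TET2, 1.94-fold (1.52–2.44) in OGT and 1.84-fold (1.56–2.17) in H2B S112GlcNAc. Starts are taken from spans given in whole kb, so a start is known to about 1 kb. The start window was denser than the whole locus at 9 of 10 genes in TET2, with Olig2 the exception, and at 10 of 10 in OGT and in H2B S112GlcNAc. The lower bound of the start window lay above the library mean at 10 of 10 genes in TET2, 6 in OGT and 9 in H2B S112GlcNAc, against 9.52%, 5.23% and 8.96% of 639271 tiles of 4 kb.

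**Figure D1:**
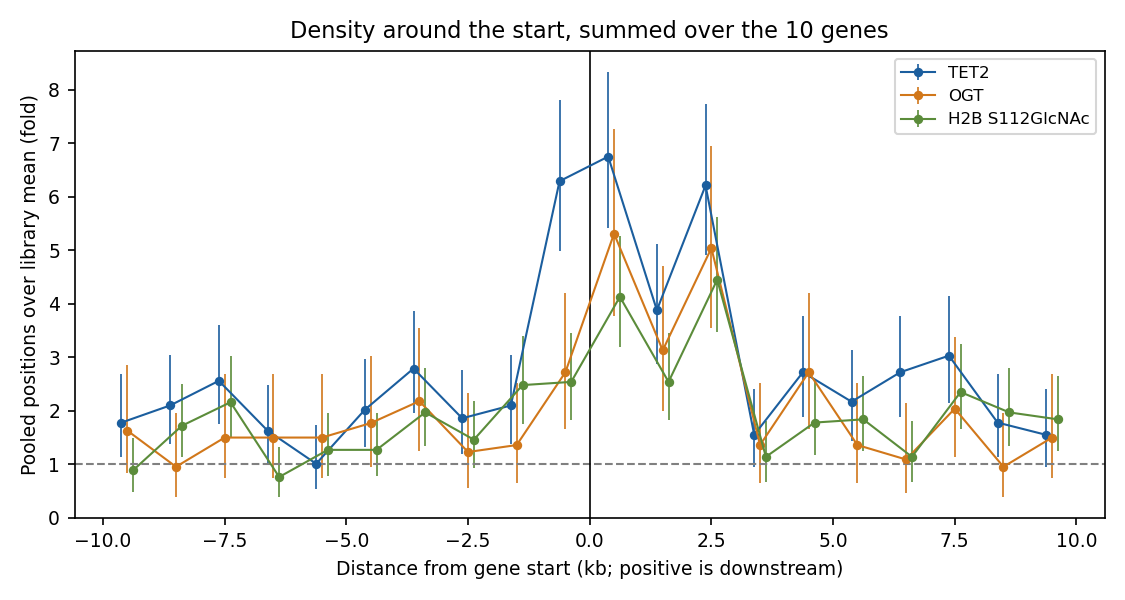
Distinct positions summed over the 10 genes in 1 kb steps from 10 kb upstream to 10 kb downstream of the gene start, as fold over the library mean, with exact Poisson 95% intervals as bars. TET2 is highest from 1 kb upstream to 1 kb downstream (6.29 and 6.75), and all 3 libraries have a further maximum at 2 to 3 kb downstream (6.21, 5.04 and 4.45). In OGT its rise over the kb before it is within counting error.

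OGT was denser downstream of the start, as placed here, than upstream. It held 62 positions in the 2 kb downstream and 30 in the 2 kb upstream, a ratio of 2.07 (1.32–3.31). In TET2 the counts were 137 and 108, a ratio of 1.27 (0.979–1.65), and in H2B S112GlcNAc 105 and 79, a ratio of 1.33 (0.983–1.80), so for these the interval holds 1. In the first kb upstream the fold was 6.29 (4.99–7.81) in TET2, 2.72 (1.66–4.21) in OGT and 2.54 (1.82–3.46) in H2B S112GlcNAc. Neurog1 alone held 38 of the 81 TET2 positions there. Without Neurog1, left out after its values were seen, the downstream to upstream ratio was 1.90 (1.41–2.58) in TET2, 2.55 (1.53–4.38) in OGT and 1.57 (1.13–2.21) in H2B S112GlcNAc. All 3 intervals then lay above 1. Starts are known to about 1 kb, so reads could change sides, and the intervals do not cover this.

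A further maximum lay 2 to 3 kb downstream in every library, with 80 TET2, 37 OGT and 70 H2B S112GlcNAc positions, against 20, 10 and 18 in the next kb. The ratio of these counts was 4.0 (2.43–6.90) in TET2, 3.70 (1.80–8.34) in OGT and 3.89 (2.29–6.94) in H2B S112GlcNAc. The kb before it, 1 to 2 kb downstream, held 50, 23 and 40 positions. Over that kb the ratio was 1.60 (1.11–2.33) in TET2, 1.61 (0.931–2.84) in OGT and 1.75 (1.17–2.65) in H2B S112GlcNAc. The OGT interval holds 1, so on that side its maximum is not beyond counting error. This stretch was picked after the profile was seen, so its ratios are a description. It came mainly from 6 of the 10 genes. Sox1 held 21 TET2, 7 OGT and 10 H2B S112GlcNAc positions in it, Olig2 held 14, 5 and 17, and Gata6 held 10, 10 and 13. Nkx2-2 held 12, 3 and 4 there, Cdx2 10, 3 and 7, and Foxa2 6, 5 and 8. Pax6, Neurog1, Gata4 and T had at most 2 TET2 positions there. Pax6 did hold 3 OGT and 6 H2B S112GlcNAc positions, against 3 and 4 at Nkx2-2. Gene annotation on mm9 was not used here, so exons and introns are not assigned to these stretches.

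Among the 5 neural regulators the Sox1 locus was the densest in TET2 and OGT. Sox1 encodes a SOXB1 factor that marks the early neuroectoderm (chromosome 8, 12395 to 12400 kb on mm9). Its locus held 127 TET2, 52 OGT and 71 H2B S112GlcNAc positions, or 3.94-fold (3.29–4.69), 2.83-fold (2.12–3.72) and 1.81-fold (1.41–2.28). TET2 stood apart from H2B S112GlcNAc here, with intervals that do not meet. Of all tiles of the same length in the genome, 0.338% reached its TET2 count, 1.35% its OGT count and 9.19% its H2B S112GlcNAc count. Around its start there were 36, 14 and 14 positions, or 6.98-fold, 4.77-fold and 2.23-fold. The bin with the most TET2 positions, 14, lay 2.0 to 2.5 kb downstream and was also the highest of the locus in H2B S112GlcNAc, with 8. OGT had its highest bin, 7 positions, at 0.5 to 1.0 kb.

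Neurog1, a proneural basic helix-loop-helix factor of sensory neuron precursors (chromosome 13, 56350 to 56353 kb, minus strand), had the densest start. The start window held 42 TET2, 14 OGT and 27 H2B S112GlcNAc positions, or 8.15-fold (5.87–11), 4.77-fold (2.61–8.0) and 4.29-fold (2.83–6.25). These were 47.2%, 40% and 38.6% of the positions of its locus, which held 89, 35 and 70. The bin from 1.0 to 0.5 kb upstream of the start held 25 TET2 positions, 38.8-fold and the highest of all 706 bins, beside 3 OGT and 6 H2B S112GlcNAc positions. Its densest TET2 stretch thus lay upstream of the start as placed here. With a start known to about 1 kb, it could also lie across the start or inside the gene. Inside the gene span of 3 kb, with no flank, there were 6 TET2, 7 OGT and 11 H2B S112GlcNAc positions, or 1.55-fold (0.570–3.38), 3.18-fold (1.28–6.55) and 2.33-fold (1.16–4.17).

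Nkx2-2, a homeodomain factor of the ventral neural tube and of pancreatic endocrine cells (chromosome 2, 147003 to 147012 kb, minus strand), was denser in TET2 than in the other libraries. Its locus held 106 TET2, 35 OGT and 83 H2B S112GlcNAc positions, or 2.84-fold (2.32–3.43), 1.64-fold (1.15–2.29) and 1.82-fold (1.45–2.26). The TET2 interval meets neither of the others. The highest TET2 bin held 10 positions at 2.0 to 2.5 kb downstream, and its Poisson tail of 1.64e-05 did not pass the rule for enriched windows given below. H2B S112GlcNAc had its highest bin, 7 positions, on the other side, 1.0 to 1.5 kb upstream.

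Olig2 encodes a factor of motor neuron and oligodendrocyte progenitors (chromosome 16, 91225 to 91230 kb). It was the only gene whose TET2 start window was not denser than its whole locus, with intervals that overlap. Its locus held 82 TET2, 43 OGT and 87 H2B S112GlcNAc positions, or 2.55-fold (2.02–3.16), 2.34-fold (1.70–3.16) and 2.21-fold (1.77–2.73), which do not differ beyond their intervals. The start window held 11, 12 and 16 positions, or 2.13-fold (1.07–3.82), 4.09-fold (2.11–7.14) and 2.54-fold (1.45–4.13). TET2 had its highest bin, 12 positions, at 2.0 to 2.5 kb, at the edge of that window, and H2B S112GlcNAc had 9 in the next bin.

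Pax6, a paired-box factor of eye, forebrain and pancreas (chromosome 2, 105508 to 105537 kb), had the flattest profile of the neural group. Its locus held 116 TET2, 53 OGT and 120 H2B S112GlcNAc positions, or 1.84-fold (1.52–2.20), 1.47-fold (1.10–1.93) and 1.56-fold (1.29–1.86). Within 2 kb of the start were 17, 5 and 14 positions, and the OGT fold there, 1.70 (0.553–3.97), is not above the library mean. No bin held more than 5 positions in any library. The 50 kb on each side stood at 0.900-fold (0.744–1.08), 0.804-fold (0.612–1.04) and 0.808-fold (0.673–0.961), below the mean beyond counting error in H2B S112GlcNAc only.

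**Figure D2:**
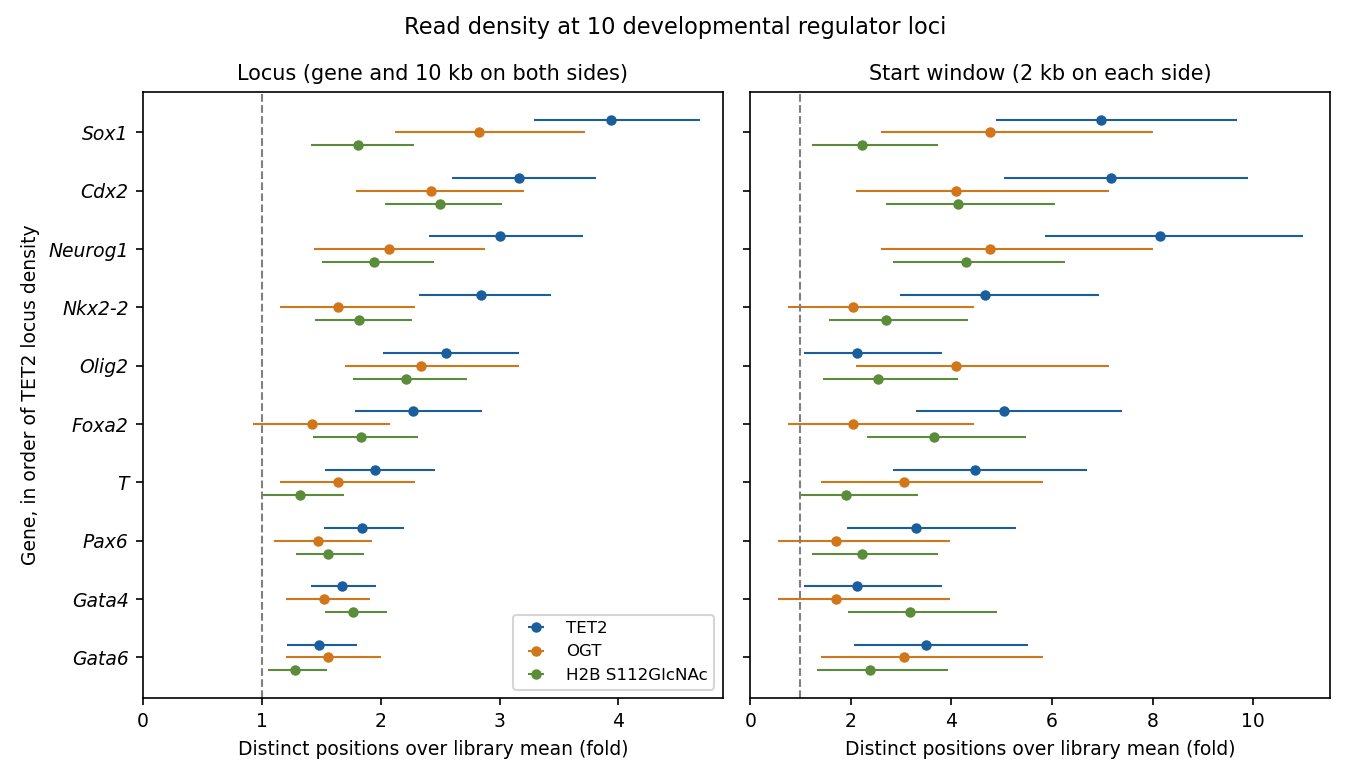
Density of each of the 10 loci (left) and of their start windows (right) in the TET2, OGT and H2B S112GlcNAc libraries, as distinct positions over the library mean, with exact Poisson 95% intervals as bars and the mean as a dashed line. Genes run down in the order of TET2 locus density, from Sox1 at 3.94 to Gata6 at 1.48, and at the starts Neurog1 is highest at 8.15.

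Taken as a pool, the 5 regulators of other lineages were lower in TET2 over their whole loci, but single genes crossed: Cdx2 was above every neural locus but Sox1, and Foxa2 and T were above Pax6. The neural loci together stood at 2.67-fold (2.45–2.91) in TET2, and the endoderm, trophectoderm and mesoderm loci at 1.93-fold (1.77–2.11). In OGT the values were 1.97-fold (1.71–2.25) and 1.66-fold (1.46–1.88), and in H2B S112GlcNAc 1.82-fold (1.65–1.99) and 1.68-fold (1.54–1.83), with intervals that overlap. In the start windows TET2 was 5.04-fold (4.21–5.99) at neural and 4.46-fold (3.68–5.36) at the other genes, which also overlap. Gata4 and Gata6, with loci of 67 and 54 kb, belong to the second group, and a fixed flank leaves more gene body in a long locus. The part of locus length in the TET2 difference was not tested.

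Cdx2, the factor of trophectoderm and hindgut (chromosome 5, 148112 to 148119 kb, minus strand), was the densest of this group in all 3 libraries. Its locus held 110 TET2, 48 OGT and 106 H2B S112GlcNAc positions, or 3.16-fold (2.60–3.81), 2.42-fold (1.79–3.21) and 2.50-fold (2.04–3.02). The start window held 37, 12 and 26 positions, or 7.18-fold, 4.09-fold and 4.13-fold. The first kb downstream alone held 24 TET2, 6 OGT and 11 H2B S112GlcNAc positions, and the first kb upstream 3, 0 and 3. A bin 14.0 to 14.5 kb downstream, beyond the 3′ end, was the highest in H2B S112GlcNAc with 8 positions and tied for the highest in OGT with 4, while TET2 had 3.

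Foxa2, a forkhead factor of the node, floor plate and endoderm (chromosome 2, 147868 to 147873 kb, minus strand), was the lowest locus in OGT. Its locus held 73 TET2, 26 OGT and 72 H2B S112GlcNAc positions, or 2.27-fold (1.78–2.85), 1.42-fold (0.925–2.08) and 1.83-fold (1.43–2.31). The start window held 26, 6 and 23 positions, or 5.04-fold, 2.04-fold and 3.66-fold. The first kb downstream held 10 TET2 and 8 H2B S112GlcNAc positions and no OGT position. OGT had 5 positions in each of the next 2 kb, and over the gene span without flanks it reached 3.27-fold (1.69–5.71). The OGT library mean is 0.734 positions per kb, so 1 empty kb says little. RefSeq has 3 Foxa2 promoters, and the place of the OGT reads relative to them was not tested. The 50 kb on each side stood at 0.838-fold (0.687–1.01), 0.681-fold (0.506–0.898) and 0.852-fold (0.714–1.01), below the mean beyond counting error in OGT only.

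T, the gene of Brachyury and a T-box factor of the primitive streak and mesoderm (chromosome 17, 8627 to 8636 kb), showed TET2 at its start and little H2B S112GlcNAc. Its locus held 73 TET2, 35 OGT and 60 H2B S112GlcNAc positions, or 1.95-fold (1.53–2.46), 1.64-fold (1.15–2.29) and 1.32-fold (1.0–1.69). The start window held 23, 9 and 12 positions, or 4.46-fold (2.83–6.70), 3.06-fold (1.4–5.82) and 1.91-fold (0.986–3.33). The highest TET2 bin, 9 positions, ended at the start, and held 3 OGT and 1 H2B S112GlcNAc positions.

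The zinc-finger genes Gata4 and Gata6, both factors of primitive and definitive endoderm and of the heart, had the lowest TET2 density over whole loci, though not both at their starts. Gata4 (chromosome 14, 63817 to 63864 kb, minus strand) held 144 TET2, 75 OGT and 187 H2B S112GlcNAc positions, or 1.67-fold (1.41–1.96), 1.52-fold (1.20–1.91) and 1.77-fold (1.53–2.05). Its start window held 11, 5 and 20 positions, or 2.13-fold (1.07–3.82), 1.70-fold (0.553–3.97) and 3.18-fold (1.94–4.91). TET2 had no position in the first 2 kb downstream of the Gata4 start, beside 1 in OGT and 8 in H2B S112GlcNAc. Gata6 (chromosome 18, 11052 to 11086 kb) held 103, 62 and 109 positions, or 1.48-fold (1.21–1.80), 1.56-fold (1.20–2.00) and 1.28-fold (1.05–1.55). Its start window held 18, 9 and 15 positions, or 3.49-fold, 3.06-fold and 2.38-fold, and 17.3%, 14.1% and 23.7% of tiles of its length reached its locus counts. The highest TET2 bin of Gata6, with 8 positions, began at the start. Its highest bin in H2B S112GlcNAc, with 8 positions, and a tied highest bin in OGT, with 5, lay at 2.5 to 3.0 kb, where TET2 had 7.

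Ranked by density, neighbouring genes could not be told apart. In each library the 9 pairs of neighbours in the order had overlapping intervals, for loci and for start windows alike. Over whole loci the ends of the order differed in TET2, with Sox1 at 3.94-fold (3.29–4.69) and Gata6 at 1.48-fold (1.21–1.80), and in OGT, with Sox1 at 2.83-fold (2.12–3.72) and Foxa2 at 1.42-fold (0.925–2.08). For H2B S112GlcNAc the ends were Cdx2 at 2.50-fold (2.04–3.02) and Gata6 at 1.28-fold (1.05–1.55). In the start windows the ends differed in TET2, with Neurog1 at 8.15-fold (5.87–11) and Gata4 and Olig2 at 2.13-fold (1.07–3.82), and overlapped in OGT and H2B S112GlcNAc. Across the 10 loci the density of TET2 and OGT had a Pearson r of 0.848 and a Spearman rho of 0.778. Between TET2 and H2B S112GlcNAc the values were 0.598 and 0.709, and between OGT and H2B S112GlcNAc 0.595 and 0.468. In the start windows these values were lower, at 0.630 and 0.605 between TET2 and OGT, 0.536 and 0.451 between TET2 and H2B S112GlcNAc, and 0.221 and 0.148 between OGT and H2B S112GlcNAc. The 10 points share cells and locus lengths, and no input library was set against them.

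**Figure D3:**
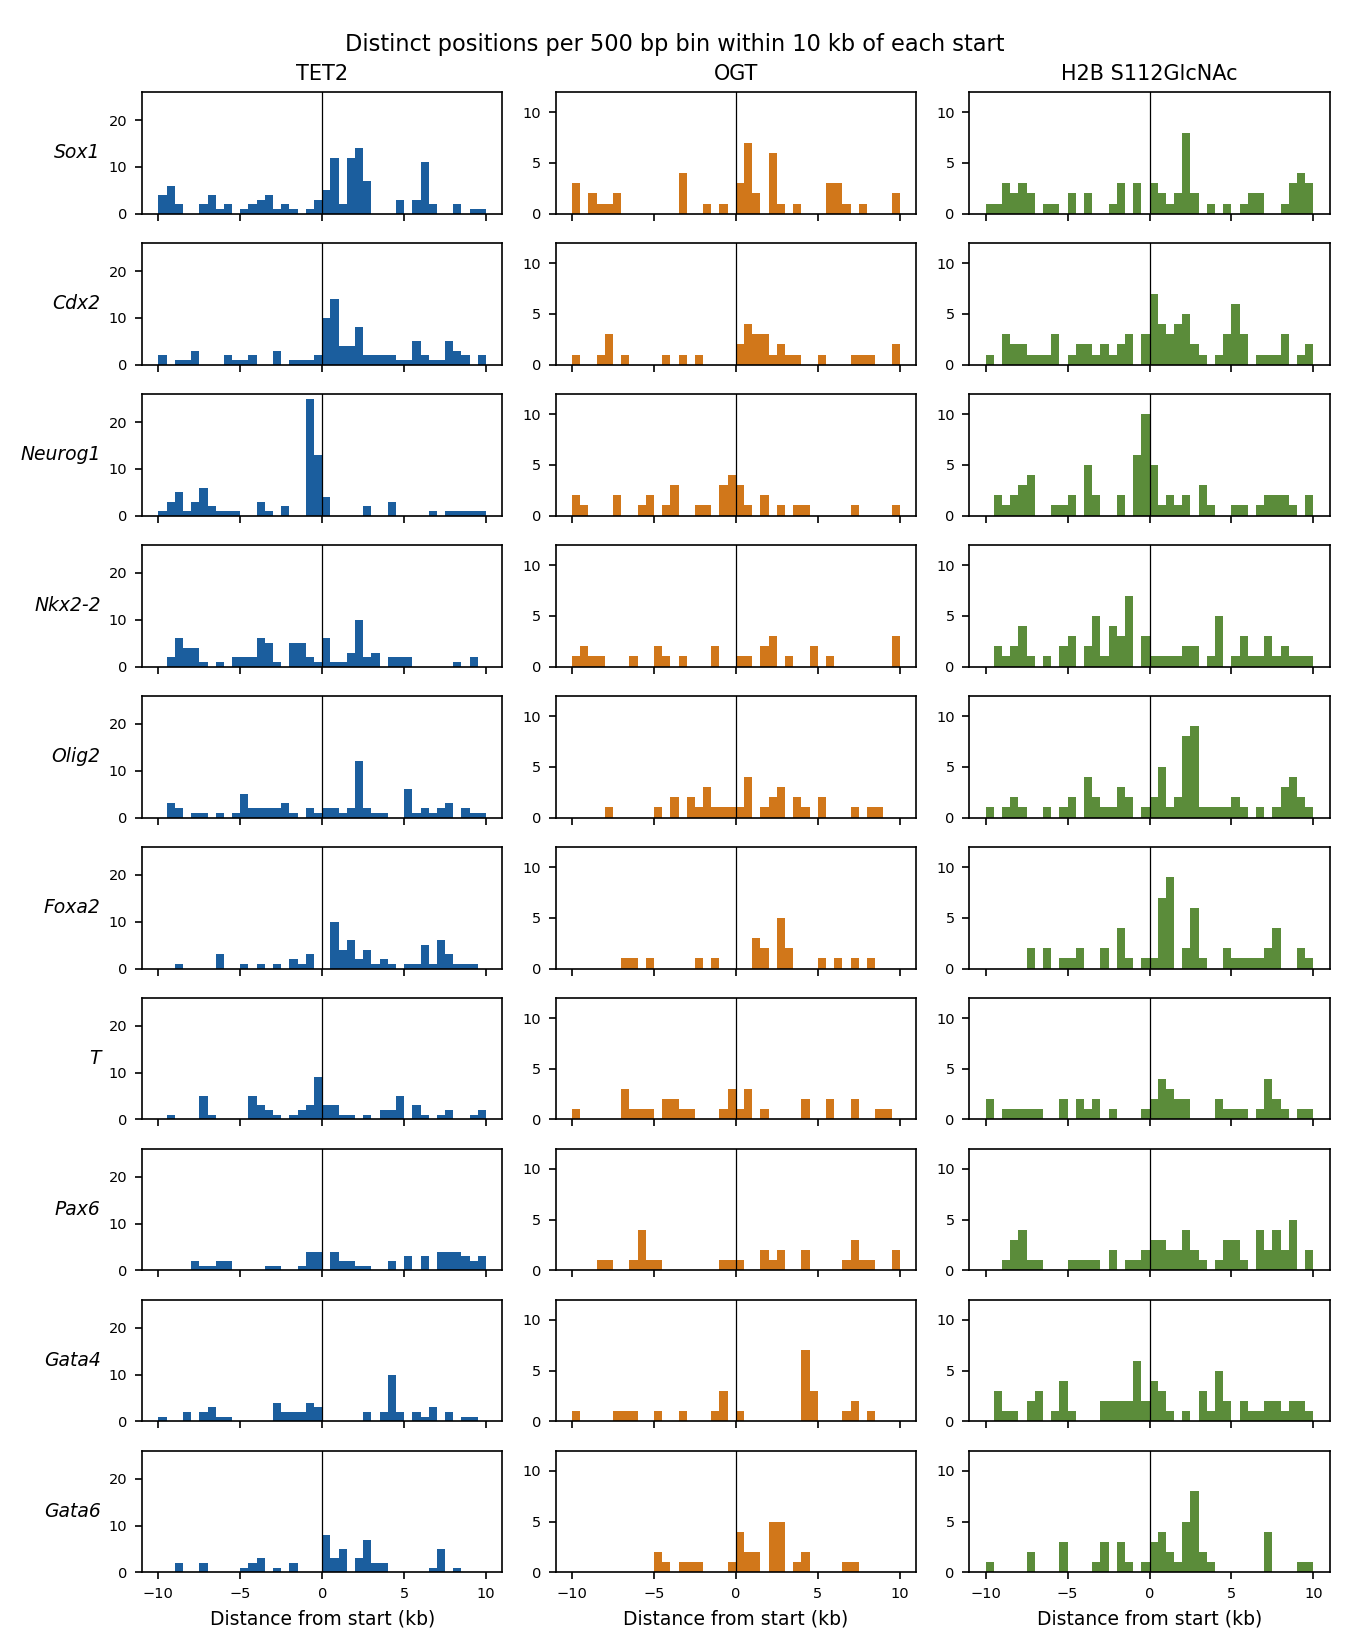
Distinct positions per 500 bp bin within 10 kb of each gene start, in the direction of transcription, in TET2 (left, axis to 26), OGT (middle, axis to 12) and H2B S112GlcNAc (right, axis to 12). In TET2 the highest bin is upstream of the start at Neurog1 and T, downstream at Cdx2, Sox1, Foxa2, Nkx2-2, Olig2 and Gata6, and 4.0 to 4.5 kb downstream at Gata4, where H2B S112GlcNAc is instead highest upstream, with 6 positions. Pax6 has no bin above 5. Starts are known to about 1 kb.

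Enriched windows were few, and most were in TET2, which also had the most in the genome. A 500 bp window counted as enriched when it held at least 4 times the positions of its local background and its Poisson tail, adjusted by Benjamini and Hochberg over all 10229973 windows, was under 0.01. Of 1422 windows that touch the loci, 11 passed in TET2 (0.774%), against 0.162% of all windows in the genome. In OGT 2 passed (0.141%), against 0.0304%, and in H2B S112GlcNAc 2 (0.141%), against 0.0439%. These numbers depend on depth: with reads drawn down to the depth of OGT, 6 passed in TET2, 2 in OGT and 0 in H2B S112GlcNAc. Windows overlap by 250 bp, and passing windows that touch were merged. This gave 6 regions in TET2, at Foxa2, Cdx2, Sox1, Neurog1, Gata4 and Olig2, 1 in OGT, at Gata4, and 2 in H2B S112GlcNAc, at Neurog1 and Olig2. Pax6, Nkx2-2, T and Gata6 had none in any library.

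The TET2 region with the most reads was that of Neurog1, on chromosome 13 at 56353001 to 56354000, the kb that ends at the start. It held 38 TET2, 7 OGT and 16 H2B S112GlcNAc positions, or 29.5-fold (20.9–40.5), 9.54-fold (3.83–19.6) and 10.2-fold (5.82–16.5). Its TET2 windows reached 29.0-fold over the local background. The H2B S112GlcNAc region of Neurog1 was the part of this stretch next to the start, at 56353001 to 56353500, and it held 13 TET2, 4 OGT and 10 H2B S112GlcNAc positions.

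The Cdx2 region, on chromosome 5 at 148118001 to 148118750, lay 250 to 1000 bp downstream of the start and held 21 TET2, 5 OGT and 9 H2B S112GlcNAc positions. The Sox1 region, on chromosome 8 at 12396751 to 12397500, lay 1750 to 2500 bp downstream and held 20, 6 and 10. In both, OGT and H2B S112GlcNAc had no call of their own but were above their library means, at 9.08-fold (2.95–21.2) and 7.63-fold (3.49–14.5) at Cdx2 and 10.9-fold (4.0–23.7) and 8.48-fold (4.07–15.6) at Sox1. The Foxa2 region, on chromosome 2 at 147871751 to 147872500, held 13 TET2, 2 OGT and 11 H2B S112GlcNAc positions. There the OGT fold of 3.63 (0.440–13.1) was not distinguishable from the library mean at this depth.

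The Olig2 regions of TET2, on chromosome 16 at 91227001 to 91227500, and of H2B S112GlcNAc, at 91227251 to 91227750, overlapped by 250 bp. The TET2 region held 12 TET2, 2 OGT and 8 H2B S112GlcNAc positions, and the H2B S112GlcNAc region 9, 4 and 11. At Gata4 the regions of TET2, on chromosome 14 at 63859501 to 63860000, and of OGT, at 63859251 to 63860000, lay 4.0 to 4.5 kb and 4000 to 4750 bp downstream of the start. The TET2 region held 10 TET2, 7 OGT and 5 H2B S112GlcNAc positions, or 15.5-fold (7.44–28.5), 19.1-fold (7.67–39.3) and 6.36-fold (2.06–14.8). This was the one place in the loci with an OGT call, and it lay outside the 2 kb start window.

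**Figure D4:**
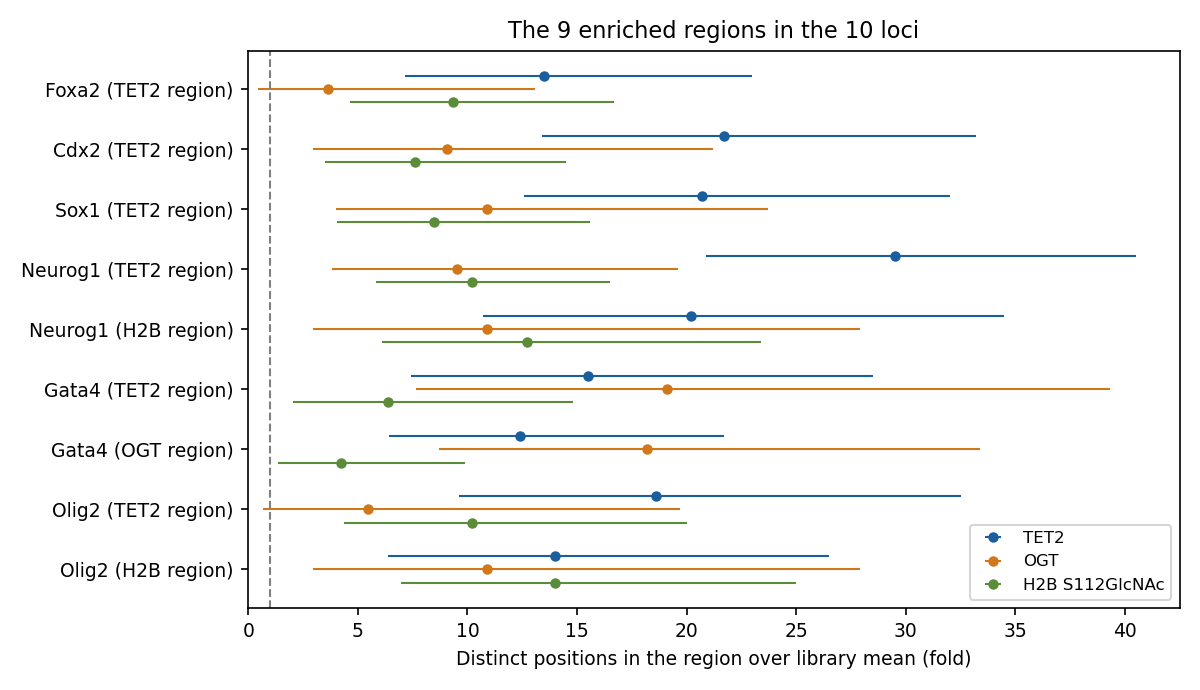
Density of the 9 enriched regions of the loci in each library, as distinct positions over the library mean with exact Poisson 95% intervals. The region's own library is high by the way regions were found, and the other 2 libraries lie above the dashed mean in most regions, with OGT at the Foxa2 and Olig2 TET2 regions reaching below it.

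OGT and H2B S112GlcNAc reads were dense in the TET2 regions, in the loci as elsewhere. In the 6 TET2 regions of the loci OGT stood at 9.29-fold (6.22–13.3) and H2B S112GlcNAc at 8.83-fold (6.72–11.4). At 9071 TET2 regions elsewhere outside extreme bins OGT stood at 7.14-fold (7.06–7.22) and H2B S112GlcNAc at 5.80-fold (5.75–5.85). In OGT the interval of the loci holds the value elsewhere, and in H2B S112GlcNAc its lower bound lies above it. The median TET2 density of the 6 regions was 19.7-fold, against 13.5-fold elsewhere.

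Dense bins lay at all 10 genes in every library, and some were shared. Bins at 5-fold or more over the library mean numbered 63 of 706 in TET2 (8.92%), 106 in OGT (15.0%) and 59 in H2B S112GlcNAc (8.36%), against 2.04%, 6.31% and 2.63% of all bins. The threshold means at least 4 positions in TET2 and H2B S112GlcNAc and 2 in OGT, so the counts are not comparable between libraries. At equal depth they were 136 in TET2 (19.3%), 106 in OGT (15.0%) and 100 in H2B S112GlcNAc (14.2%), against 6.39%, 6.31% and 6.35% of all bins. All 3 libraries reached 5-fold in 16 bins (2.27%), against 0.364% of the genome. These were 4 bins at Neurog1, 3 each at Cdx2 and Gata4, 2 at Foxa2 and 1 each at Nkx2-2, Sox1, Olig2 and Gata6. Of the 16, 13 lay within 3 kb of the start, in loci that cover 353 kb. That limit is wider than the 2 kb start window. It takes in the bins at Sox1, Olig2 and Gata6 and 1 at Foxa2, which lay in the 2 to 3 kb stretch picked after the profile was seen. Of the 63 TET2 bins, 30 (47.6%) also passed in OGT and 22 (34.9%) in H2B S112GlcNAc, against 37.9% and 30.4% of TET2 bins in the genome. Of the 106 OGT bins, 28.3% also passed in TET2, against 12.2% in the genome, and of the 59 H2B S112GlcNAc bins 37.3% did, against 23.5%.

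Scaled to library means, TET2 exceeded both other libraries over the loci, and OGT and H2B S112GlcNAc could not be told apart. The ratio of TET2 to OGT over the 10 loci was 1.26 (1.12–1.4), that of TET2 to H2B S112GlcNAc 1.29 (1.18–1.41) and that of OGT to H2B S112GlcNAc 1.03 (0.920–1.15). In the start windows the ratios were 1.52 (1.19–1.95), 1.62 (1.34–1.98) and 1.07 (0.825–1.38). In the 50 kb on each side they were 1.10 (1.01–1.19), 1.03 (0.961–1.09) and 0.935 (0.862–1.01). Against H2B S112GlcNAc the intervals at the loci and beside them do not meet, and against OGT they overlap.

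Single loci followed this unevenly. The ratio of TET2 to OGT was at least 1.5 at 2 of 10 loci, Nkx2-2 (1.73, 1.17–2.61) and Foxa2 (1.60, 1.01–2.61), against 9.64% of 30 kb tiles in the genome. Its interval lay above 1 at 3 loci, these and Sox1 (1.39, with a lower bound that rounds to 1.0), against 2.28% of tiles. The ratio of TET2 to H2B S112GlcNAc was at least 1.5 at 3 loci, Sox1 (2.18, 1.62–2.96), Nkx2-2 (1.56, 1.16–2.10) and Neurog1 (1.55, 1.12–2.15), against 4.38% of tiles. Its interval lay above 1 at 4 loci, these and T, against 2.68%. The ratio of OGT to H2B S112GlcNAc reached 1.5 at 1 locus, Sox1 (1.57, 1.08–2.28), against 6.80%, and its interval lay above 1 at the same locus, against 1.93%. A ratio of TET2 below 1 occurred at Gata4 against H2B S112GlcNAc (0.940, 0.751–1.17) and at Gata6 against OGT (0.946, 0.684–1.32), and both intervals hold 1. At the start windows the counts are small. There the interval of TET2 to H2B S112GlcNAc lay above 1 at 4 of 10 genes, Sox1 (3.14, 1.65–6.30), T (2.34, 1.12–5.16), Neurog1 (1.90, 1.14–3.20) and Cdx2 (1.74, 1.02–2.99), against 1.33% of 4 kb tiles. That of TET2 to OGT did so at 0 of 10, against 0.635% of tiles. The ratio was below 1 at Olig2, at 0.522 (0.209–1.29) to OGT and 0.839 (0.352–1.92) to H2B S112GlcNAc, and at Gata4, at 0.671 (0.290–1.47) to H2B S112GlcNAc.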

How the data were processed

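Each of the 3 libraries is a deposited list of aligned reads of 44 bp with position, strand and a score that was the same constant in every line, per the file's own values, and that was not used. The submitters' processing notes name build mm9, CASAVA 1.4 and Bowtie 0.12.2, with no role given. Details of how the authors treated repeated or multiply matching reads are not given in the sources used here. Reads with the same start and strand were counted once, 5′ ends were moved 100 bp towards the fragment centre and positions were counted on chromosomes 1 to 19 and X. The library mean was taken over 10 kb stretches with a read in any library. For a window, the local background was whichever was highest among the mean of the genome, of 10 kb and of 50 kb around it, leaving out the window and 500 bp on each side. The strand of a gene was RefSeq's, and for Gata4 and Gata6 textbook knowledge. The window rule was also run on simulated reads with known enrichment over a uniform background. That setting lacks the uneven background of real libraries, so it cannot show how the rule performs on them. Intervals are exact (Poisson, and Clopper-Pearson for ratios) and cover counting error only, since each antibody had 1 library. Where every read was kept they also count PCR copies, which are not independent molecules. Every member is named, and within a locus the highest bin and each region. The members, lists and rules were chosen with earlier results of these data known. Python 3.11.15, NumPy 2.4.6, SciPy 1.17.1 and pandas 2.3.3 were used.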

Additional observations from a re-analysis of the deposited data

How the results depend on the processing

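No paired analysis was possible because the design holds 1 library of each antibody. Over the 10 loci as a whole, 56 values under an alternative stayed within the main 95% interval or within 1.5 times the main count, and 31 did not. No pooled density fell to the library mean. For single loci 146 values stayed and 34 moved. Without flanks the interval came to hold the library mean in TET2 at Neurog1 (1.55-fold) and in OGT at Nkx2-2 (1.66-fold) and T (1.82-fold), and median scaling lifted OGT at Foxa2 above it (1.73-fold). In this paragraph values are in the order TET2, OGT and H2B S112GlcNAc. Without flanks the pooled fold was 2.42, 2.05 and 1.98. With every read kept it was 2.09, 1.62 and 1.58, and scaled by the median 10 kb bin 2.90, 2.19 and 2.10. Start windows of 1 kb on each side stood at 6.52 and 4.02 in TET2 and OGT, and with median scaling start windows stood at 6.12 and 3.54 in TET2 and H2B S112GlcNAc. Bins at 5-fold numbered 32, 28 and 12 with 1 kb bins, and the number was 46 in OGT and 34 in H2B S112GlcNAc with every read kept, 136 in TET2 and 100 in H2B S112GlcNAc at the depth of OGT, and 119 in TET2 with median scaling. Enriched windows numbered 4, 0 and 0 with an adjusted tail under 1e-05, and 5 in TET2 and 1 in H2B S112GlcNAc at 8-fold. They numbered 4 in H2B S112GlcNAc with every read kept, 1 in OGT and 4 in H2B S112GlcNAc with no shift, and 6 in TET2 and 0 in H2B S112GlcNAc at the depth of OGT. The OGT and H2B S112GlcNAc calls, at 2 windows each, thus depended on these settings. The ratios between libraries stayed within their intervals under all alternatives run. Leaving out extreme bins moved no value beyond its interval, as none lies in the loci. Narrower windows, other denominators, fewer reads and stricter rules change counts by construction, and for keeping every read and no shift the cause was not tested. Repeated reads were 13.9%, 13.8% and 13.4% of all reads of the libraries. Keeping them also raises the library mean, and with it the reads that 5-fold needs. The part of this in the bin counts was not tested. In TET2 bins at 5-fold numbered 73 with every read kept. Depth limits the OGT library most: 1 position in a 500 bp bin is already 2.72-fold the mean there, against 1.55-fold in TET2 and 1.27-fold in H2B S112GlcNAc.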
